A study of Saccharomyces cerevisiae S288C with 32 samples.

Results

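The comparison set the transcript response of zuo1 yeast to L-azetidine-2-carboxylic acid (AZC) against that of not5 yeast. AZC resembles proline and is taken up into new proteins instead of it, so that they misfold. Of the 32 libraries of the series, 16 entered the comparison. They were 4 zuo1 libraries given vehicle and 4 given AZC on flowcell 1, and 4 not5 libraries given vehicle and 4 given AZC on flowcell 2. All were Saccharomyces cerevisiae S288C grown in YPD at room temperature and treated for 45 minutes with AZC at 2 mg/mL or with sterile water. The other 16 libraries were wild-type S288C, with 4 vehicle and 4 AZC libraries on each flowcell, and are used only as a reference. The labels name each genotype by the gene alone and do not say how the mutants were made or how many clones were used. Genotype and flowcell cannot be told apart in levels of zuo1 against not5, so the comparison is between responses, each taken within its flowcell.

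ZUO1 encodes a J-domain co-chaperone that, with the Hsp70-like protein Ssz1, forms the ribosome-associated complex acting on chains as they leave the ribosome. NOT5 encodes part of Ccr4-Not, a complex that deadenylates mRNA and can bind ribosomes whose decoding is slow. When misfolded proteins accumulate, the transcription factor Hsf1 is released from Hsp70 and drives chaperone genes, while Msn2 and Msn4 drive a general stress program that is tied to falling expression of ribosome biogenesis genes. The series title concerns translation and mRNA decay when newly made proteins misfold. These libraries measure mRNA selected by poly(A), so a change in tail length that alters selection cannot be told apart from a change in level, and neither can RNA per cell from the share of a transcript in the library.

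ZUO1 (YGR285C) had 0 counts in 7 of the 8 zuo1 libraries and 3 counts in 1 AZC library, against 22486 to 52574 in the not5 libraries. NOT5 (YPR072W) had 0 counts in all 8 not5 libraries and 4017 to 5472 in zuo1. LEU2 (YCL018W) was read only in not5, with 1378 to 2311 counts. Depth was 24017722 to 31485394 counts in zuo1 and 58229383 to 97010130 in not5. Ribosomal RNA records took 0.78% to 1.58% of a zuo1 library and 3.95% to 4.84% of a not5 library of number 1, 2 or 3, but 14.9% and 13.1% of the vehicle and AZC library of number 4, which are therefore left out of some values below.

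The largest called responses to AZC were those of zuo1, while the number of genes called in each mutant depended on the fit. Separate fits of each mutant, described below, called 126 genes in zuo1 and 600 in not5. In 1 edgeR fit of all 16 mutant libraries, 249 of 5840 genes changed in zuo1 at an adjusted p under 0.05 (4.26%), of which 190 were higher (3.25%) and 59 lower (1.01%). No gene passed in not5, where 365 had an unadjusted p under 0.05, and where DESeq2 called 49 and limma-voom 42. The test of the difference itself called 96 genes (1.64%). In 83 of these the zuo1 value was the higher one (1.42% of genes tested), and in 13 the lower one (0.223%). In 95 of the 96 the zuo1 response was the farther from 0. Scaling by library totals alone gave 135 genes higher and 124 lower in zuo1, and 70 and 17 for the difference, with the median of all genes moved by -0.06 in zuo1. Without zuo1 AZC library 2 the counts were 605 for zuo1 and 182 for the difference, and without zuo1 vehicle library 3 the zuo1 count was 517.

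Of the genes called in zuo1, 49 rose at least 2-fold, by a median log2 fold change of 1.73. All 49 had a positive not5 value, with a median of 0.20. The difference test called 46 of the 49. It uses again the zuo1 values by which the 49 were picked, so that count is no separate support. No gene called in not5 by the separate fit described next reached 2-fold.

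The joint fit gives each gene 1 spread for both mutants, and the mutants differed in spread. Not5 libraries of equal number varied together, and the log2 ratios of AZC to vehicle in the 4 not5 pairs had a median SD over genes of 0.0667, against 0.147 for zuo1 libraries of equal number. The median SE of a not5 response was 0.0739 in the joint fit and 0.0346 when the 8 not5 libraries were fitted alone. That separate fit called 600 of 5828 genes in not5 (10.3%), 317 higher (5.44%) and 283 lower (4.86%). Of the 600, 596 moved the same way in all 4 pairs, which the paired test itself selects for and which is no separate support. Without the pairing edgeR called 0, with 39 genes at an unadjusted p under 0.05. Without 1 not5 library of number 2 or 4 it called 216 to 246, and without both libraries of number 4 it called 241. With the pairing, a not5 library whose partner is left out adds nothing to the response, so fits without either or both of a pair are near repeats. These were small changes, since 542 of the 600 were under 1.25-fold and 8 reached 1.5-fold. The separate fit of the 8 zuo1 libraries called 126 of 5751 genes (2.19%), 112 higher (1.95%) and 14 lower (0.243%). Which genes responded in both mutants was read from these separate fits, and whether responses differed was read from the joint test. Values after ± are SE from the fits, with 4 libraries a group.

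**Figure D1:**
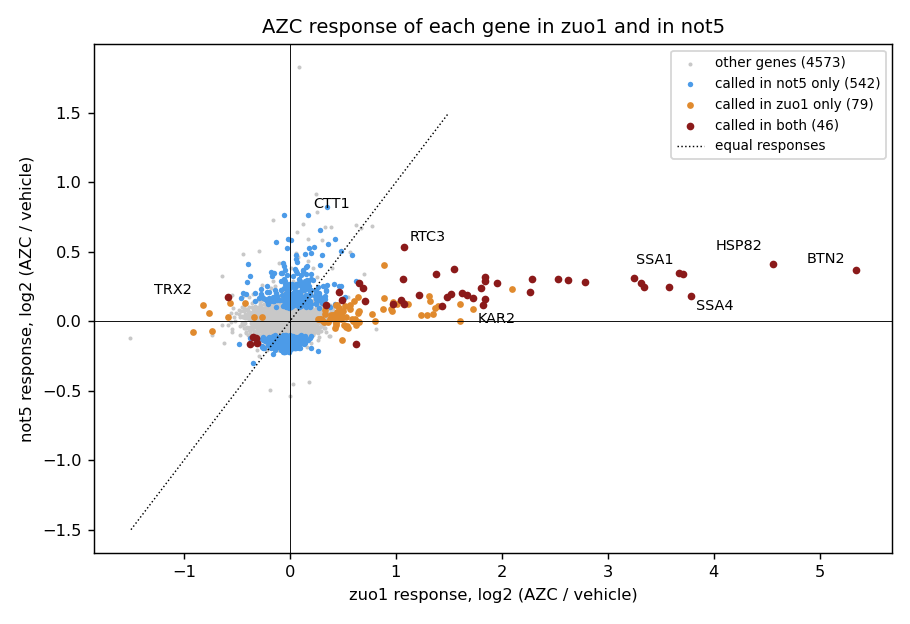
Points are genes averaging 10 CPM or more (counts scaled to a common library total by TMM factors), with the zuo1 response on the x axis and the not5 response on the y axis (joint fit), coloured by the separate fit that called it. ZUO1, NOT5 and LEU2 are left out. Called zuo1 responses reach 5.35 on the log2 scale with a not5 value of 0.37 there, far under the dotted line of equal responses, while genes called lower in zuo1, such as TRX2, lie above it or near it.

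Of 5733 genes tested in both separate fits, 40 rose in both mutants (0.698%) and 4 fell in both, together 0.767%. The 40 were 31.7% of the genes called in zuo1 and 6.67% of those called in not5. Without 1 not5 library of number 2 or 4, 27 to 29 genes in all were called in both, against 46 with all libraries, which include 2 called in opposite directions. The 40 that rose in both had a median log2 fold change of 1.76 in zuo1 and 0.244 in not5. The difference test called 33 of the 40, each with the higher value in zuo1. It reads the same libraries that picked the 40 and is no separate support. Among the 40 were 19 Hsf1 core targets and 3 of the other heat-inducible chaperones. The 4 that fell in both were CLN2, MCD1, POL30 and SPT21, singled out after their values were seen. None fell in both without zuo1 vehicle library 1 or 2 or zuo1 AZC library 4, and 1 did without a not5 library of number 2 or 4. Their median was -0.33 in zuo1 and -0.14 in not5, and the difference test called none of them. CLN2 encodes a G1 cyclin, MCD1 a cohesin subunit, POL30 the sliding clamp of DNA polymerase and SPT21 a factor needed for histone gene transcription.

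Across 5240 genes averaging 10 CPM or more, the responses had a Pearson r of 0.25 (Spearman rho 0.142), and the not5 response rose by 0.0974 for each unit of the zuo1 response. This describes genes and not replicates. Among the 185 of these called higher in zuo1, r was 0.672 with a slope of 0.0888, and 151 had a positive not5 value. Among the 56 called lower in zuo1, 23 had a positive not5 value. Among those 56, r was -0.118.

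Promoters of 4 genes are shown to place the response classes beside the letters of known stress elements. HSP42 and BTN2 rose in both mutants, KAR2 was called in zuo1 alone and CTT1 in not5 alone. Each is the plus strand of R64 from 250 bases before to 50 after the annotated gene start, credited to the RefSeq genome, at chrIV:806371-806670, chrVII:772204-772503, chrX:381077-381376 and chrVII:654384-654683. Capitals mark GAANNTTC or TTCNNGAA in the first 3, a pair of units of the heat shock element bound by Hsf1, and CCCCT in CTT1, the reverse of AGGGG, the stress response element bound by Msn2 and Msn4.
HSP42: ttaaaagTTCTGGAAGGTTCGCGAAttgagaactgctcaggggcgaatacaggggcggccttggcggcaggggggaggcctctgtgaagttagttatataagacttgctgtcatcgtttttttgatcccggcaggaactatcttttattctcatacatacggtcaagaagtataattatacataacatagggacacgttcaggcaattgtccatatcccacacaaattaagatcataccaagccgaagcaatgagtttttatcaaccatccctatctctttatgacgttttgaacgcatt
BTN2: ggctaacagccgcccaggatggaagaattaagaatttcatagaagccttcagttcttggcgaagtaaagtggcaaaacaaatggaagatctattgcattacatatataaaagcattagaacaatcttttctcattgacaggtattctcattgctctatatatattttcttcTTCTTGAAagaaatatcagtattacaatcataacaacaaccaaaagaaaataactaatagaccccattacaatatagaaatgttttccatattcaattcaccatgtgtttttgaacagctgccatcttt
KAR2: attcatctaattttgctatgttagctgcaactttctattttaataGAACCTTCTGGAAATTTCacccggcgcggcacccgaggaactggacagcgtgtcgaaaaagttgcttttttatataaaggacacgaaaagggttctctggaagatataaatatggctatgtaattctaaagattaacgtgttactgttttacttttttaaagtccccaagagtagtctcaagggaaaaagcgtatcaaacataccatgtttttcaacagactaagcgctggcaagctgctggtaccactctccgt
CTT1: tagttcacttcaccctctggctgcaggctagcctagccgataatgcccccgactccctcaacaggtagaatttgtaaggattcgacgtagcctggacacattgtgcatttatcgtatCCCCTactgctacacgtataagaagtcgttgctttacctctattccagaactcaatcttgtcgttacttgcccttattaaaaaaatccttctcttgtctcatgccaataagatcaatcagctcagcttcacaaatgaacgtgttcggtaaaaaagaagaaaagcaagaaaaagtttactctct
HSP42 and KAR2 each hold 3 overlapping pairs in 1 run, BTN2 holds 1 pair, and CTT1 holds 1 stress response element and 1 heat shock pair that is not in capitals. HSP42 also holds 3 stress response elements that are not in capitals. Counted on both strands, a heat shock pair stood in 22.7% of 5771 promoters of tested protein-coding genes, in 60.0% of the 40 that rose in both mutants, in 40.0% of 70 called higher in zuo1 alone and in 20.7% of 276 called higher in not5 alone. The stress response element stood in 21.6% of all, in 37.5%, 17.1% and 47.8% of the same classes, and in 11.2% of 278 called lower in not5 alone. A match is a description of letters in this window, and a heat shock pair and a stress response element can share only an end base.

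In the gene lists that follow, zuo1 and difference counts are from the joint fit and not5 counts from the separate fit, unless stated. Over all genes these fits called 3.25% higher and 1.01% lower in zuo1, 5.44% higher and 4.86% lower in not5, and 1.64% for the difference. The 20 Hsf1 core targets all rose in zuo1, and the difference test called all 20 with the higher value in zuo1. Their median log2 fold change was 2.46 in zuo1 and 0.26 in not5, against -0.01 and 0 over all genes. The separate not5 fit called 19 of the 20 higher, and 16 without the libraries of number 4. In vehicle, the list already stood apart from wild type of the same flowcell, with a median of 0.96 higher in not5 and -0.68 in zuo1 on the log2 scale. Wild type responded by a median of 3.50 on flowcell 1 and 3.11 on flowcell 2. SSA1 and SSA2, and HSP82 and HSC82, are near-identical pairs among which Salmon divides shared reads, so the split within each pair is uncertain.

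BTN2 (YGR142W), which encodes a sequestrase that gathers misfolded proteins into deposits, had the largest called difference. It stood at 23.8, 25.6, 21.6 and 20.2 CPM in zuo1 with vehicle and at 851, 912, 955 and 995 CPM with AZC. In not5 it stood at 197, 479, 319 and 360 CPM with vehicle and at 238, 607, 393 and 529 CPM with AZC. The zuo1 groups were far apart, while the not5 groups overlapped and only the pairs of equal number showed a rise, by 0.27, 0.34, 0.30 and 0.55 on the log2 scale. BTN2 rose 40.7-fold in zuo1 (log2 5.35 ± 0.10, edgeR adjusted p = 2.7e-14) and 1.29-fold in not5 (0.37 ± 0.04, adjusted p = 0.0024 in the separate fit), a difference of 4.98 ± 0.12 (adjusted p = 1.6e-12). With vehicle, BTN2 stood 2.71 above wild type in not5 and at -1.09 against wild type in zuo1, both on the log2 scale.

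HSP82 (YPL240C), the inducible Hsp90, went from 88.8, 120, 94.7 and 88.3 CPM to 2248, 1981, 2400 and 2654 CPM in zuo1. In not5 it went from 570, 1545, 916 and 1031 CPM to 730, 1914, 1181 and 1588 CPM. The not5 libraries of number 2 were the highest and those of number 1 the lowest in both groups, so the groups overlapped although each pair rose. The response was 4.56 ± 0.13 in zuo1 and 0.41 ± 0.05 in not5, and they differed by 4.15 ± 0.17 (edgeR adjusted p = 1.2e-09).

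HSP42 (YDR171W), a small heat shock protein that sequesters misfolded proteins in the cytosol, rose from 44.0 to 62.4 CPM to 594 to 828 CPM in zuo1. In not5 it spanned 177 to 452 CPM with vehicle and 217 to 559 CPM with AZC. Its responses were 3.71 ± 0.14 and 0.34 ± 0.04. With vehicle, HSP42 stood 0.74 above wild type of the same flowcell in zuo1 and 2.58 above it in not5, on the log2 scale. SSA4 (YER103W), the stress-induced cytosolic Hsp70, rose from 56.3 to 63.1 CPM to 670 to 1067 CPM in zuo1, a log2 response of 3.79 ± 0.13. Its not5 response was 0.18 ± 0.03, with pairs at 0.10, 0.14, 0.29 and 0.18. Wild type responded by 8.16 and 7.78.

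Of the other named genes, SSA1, a constitutive and inducible cytosolic Hsp70, rose by 3.67 ± 0.14 in zuo1 and 0.35 ± 0.06 in not5. HSP104, the disaggregase, rose by 3.58 ± 0.11 and 0.25 ± 0.04, and HSP78, its mitochondrial relative, by 3.34 ± 0.14 and 0.25 ± 0.04. CUR1, the paralog of BTN2 that sends misfolded proteins to the nucleus, rose by 3.25 ± 0.13 and 0.31 ± 0.03. ROQ1, which turns the ubiquitin ligase Ubr1 toward misfolded proteins, rose by 3.31 ± 0.11 and 0.28 ± 0.05. In each of these 5 genes all 4 not5 pairs were positive and the not5 groups overlapped. In vehicle HSP78 stood 2.32 and ROQ1 3.81 above wild type in not5.

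**Figure D2:**
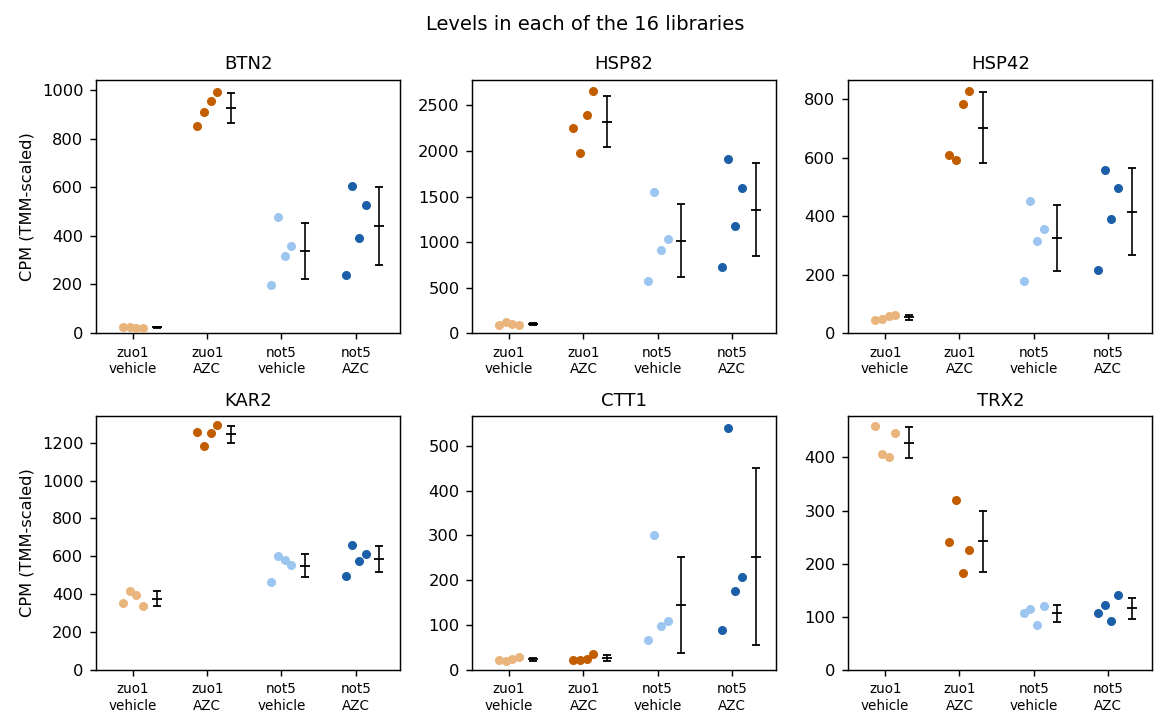
Each panel plots CPM scaled by TMM factors (y axis, from 0) in the 4 libraries of each mutant and treatment, in order of replicate number, with the mean and SD in black. BTN2, HSP82 and HSP42 rise without overlap in zuo1, while their not5 groups overlap. Levels in zuo1 and not5 come from different flowcells, so heights are to be read within each mutant.

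Among 23 other heat-inducible chaperones, 9 rose and 1 fell in zuo1, 5 rose in the separate not5 fit, and 7 had a called difference, each higher in zuo1. SSE2, an Hsp70 exchange factor, rose by 1.84 ± 0.14 in zuo1 and 0.29 ± 0.04 in not5. OPI10, whose human relative Hikeshi carries Hsp70 into the nucleus, rose by 1.67 ± 0.07 and 0.19 ± 0.04. HSP60, the mitochondrial chaperonin, rose by 1.37 ± 0.09 in zuo1 and had 0.10 ± 0.03 in not5, which did not pass (adjusted p = 0.098). ATG41, an autophagy gene outside the list, rose in both, by 2.53 ± 0.14 and 0.31 ± 0.07, and so did MBF1, a coactivator that also limits frameshifting on stalled ribosomes, by 1.85 ± 0.17 and 0.32 ± 0.04.

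A few genes that rose in both had responses whose difference did not pass the test. RTC3 stood at 13.5 to 24.5 CPM with vehicle and 28.1 to 45.6 CPM with AZC in zuo1, and at 25.8 to 71.3 and 35.3 to 98.9 CPM in not5. Its responses of 1.07 ± 0.18 and 0.54 ± 0.05 differed by 0.54 ± 0.24 (edgeR adjusted p = 0.49). HXK1, a hexokinase of the Msn2/4 list, rose by 1.38 ± 0.21 in zuo1 and 0.34 ± 0.05 in not5, and the difference of 1.04 ± 0.29 had an adjusted p of 0.14. TMA10, a ribosome-associated stress protein, rose from 0.876 to 1.45 CPM to 2.48 to 4.95 CPM in zuo1 and had a called difference of 1.18 ± 0.25. The call was lost in 9 of 16 fits without 1 library and with limma-voom weighted by mutant (adjusted p = 0.302). In this and later tallies of 16 fits, the fits without either library of a not5 pair are near repeats and not separate checks.

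PUT1 and PUT2, of proline breakdown, were the only named genes called in not5 whose vehicle and AZC groups did not overlap there. PUT1, proline oxidase, stood at 12.7 to 17.1 CPM with vehicle and 30.6 to 32.4 CPM with AZC in zuo1. In not5 it stood at 50.2, 39.7, 48.5 and 46.2 CPM and then at 63.6, 51.0, 59.1 and 53.8 CPM. Neither mutant's groups overlapped. PUT1 rose by 1.07 ± 0.08 and 0.30 ± 0.04, a difference of 0.76 ± 0.11 (edgeR adjusted p = 0.00065). PUT2, the next enzyme of proline breakdown, stood at 366 to 395 CPM with vehicle and 438 to 444 CPM with AZC in not5, again without overlap, and rose by 0.46 ± 0.08 in zuo1 and 0.21 ± 0.03 in not5. Of the 11 genes of proline synthesis, use and uptake, 2 rose in zuo1, and 4 rose and 1 fell in the separate not5 fit. Over all genes 3.25% rose in zuo1, and 5.44% rose and 4.86% fell in not5. After the wild-type response of each flowcell was subtracted, the PUT1 difference was 0.09 and did not pass (edgeR adjusted p = 0.892).

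The ER unfolded protein response list had 16 tested genes, of which 3 rose in zuo1, none passed in not5, and 2 had a called difference with the higher value in zuo1. KAR2, the Hsp70 of the ER lumen, stood at 352, 418, 397 and 339 CPM with vehicle and 1256, 1181, 1250 and 1292 CPM with AZC in zuo1. In not5 it stood at 462, 602, 579 and 556 CPM and at 495, 659, 576 and 611 CPM. The responses of 1.72 ± 0.08 and 0.09 ± 0.03 differed by 1.63 ± 0.11 (edgeR adjusted p = 1.1e-07). ERO1, the oxidase that makes disulfide bonds in the ER, rose by 1.35 ± 0.06 in zuo1 and had 0.05 ± 0.03 in not5.

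Protein turnover showed the same contrast in a few genes. RPN4, which drives proteasome gene transcription, rose from 167 to 210 CPM to 368 to 399 CPM in zuo1 (1.05 ± 0.07) and by 0.15 ± 0.04 in not5. Of 33 proteasome genes with RPN4, 5 rose in zuo1, where 3.25% of all genes did, and 1 in not5, where 5.44% did. A called difference was found for 1, and the list medians were 0.18 and 0.03. Of 16 ubiquitin and misfolded protein ligase genes, 4 rose in zuo1, among them the ubiquitin-conjugating enzyme gene UBC4 by 1.12 ± 0.09. The separate not5 fit called 1 of the 16 higher, where it called 5.44% of all genes. UBC4 had 0.13 ± 0.04 in not5 (adjusted p = 0.053) and a called difference of 0.99 ± 0.13.

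Of the lists nearest to the title, decay and ribosome quality control held 2 called differences each. Over all genes 1.64% had a called difference. None of 9 Ccr4-Not genes passed in either mutant or in the difference. NOT5 itself, with 0 counts in every not5 library, could pass neither in not5 nor in the difference. Of 29 genes of mRNA decapping and decay, 2 rose in zuo1 and had a called difference, and none passed in not5. They were EDC2, an activator of decapping, with 1.60 ± 0.08 in zuo1 and 0.12 ± 0.04 in not5, and CTH1, an mRNA-destabilizing zinc finger protein, with 0.98 ± 0.08 and 0.14 ± 0.04. EDC2 stood at 15.6 to 18.9 CPM with vehicle and 47.4 to 55.1 CPM with AZC in zuo1, and at 44.0 to 62.9 and 42.9 to 68.9 CPM in not5. Of 19 ribosome quality control genes, 3 rose in zuo1, where 3.25% of all genes did, MBF1 above among them, and 1 in not5, and NPL4, a cofactor of Cdc48, had a called difference of 0.39 ± 0.08, lost without not5 vehicle library 4. Of 8 ribosome-associated chaperone genes, ZUO1 itself among them, none passed in zuo1 and 3 were lower in the separate not5 fit, where 4.86% of all genes were, a count of 1 to 2 when 1 not5 library was left out. SSZ1, the partner of ZUO1, had 0.05 ± 0.08 in zuo1 and fell by 0.11 in not5 (SE 0.03, edgeR adjusted p = 0.049).

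The Msn2/4 list had nearly equal medians in the mutants, 0.28 in zuo1 and 0.27 in not5. In zuo1 6 of its 30 genes rose by the joint fit and 4 by the separate fit, where 3.25% and 1.95% of all genes did. In the separate not5 fit 22 rose, where 5.44% of all genes did, and no difference passed. In vehicle the list's median stood 1.92 above wild type in not5 and 0.31 above it in zuo1. CTT1, cytosolic catalase and a member of this list, stood at 65.3, 302, 98.6 and 109 CPM with vehicle and 89.3, 539, 176 and 206 CPM with AZC in not5, while in zuo1 it spanned 19.6 to 27.7 and 21.2 to 35.6 CPM. The not5 libraries of number 2 stood above all others in both groups. CTT1 rose by 0.77 ± 0.08 in not5 and had 0.17 ± 0.15 in zuo1, and the difference of -0.59 ± 0.21 did not pass (edgeR adjusted p = 0.31).

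With CTT1, the largest called rises in not5 among genes of at least 10 CPM were those of FMP48, GID10, RTN2 and SPG4. FMP48, a mitochondrial protein gene, rose by 0.84 ± 0.08, GID10, a recognition subunit of the GID ubiquitin ligase, by 0.78 ± 0.09, RTN2, a reticulon gene, by 0.66 ± 0.10, SPG4, a stationary phase gene, by 0.60 ± 0.07. UGA2, an enzyme of GABA breakdown, rose by 0.53 ± 0.08. For none of these 5 did the difference from zuo1 pass, with edgeR adjusted p of 0.56, 0.11, 0.52, 0.44 and 0.093. In zuo1 SPG4 averaged 2.15 CPM with vehicle and 2.12 CPM with AZC, and GID10 4.70 and 4.53 CPM. SPG4 and GID10 thus met the mean of 10 CPM only through not5, and their zuo1 responses were read at low counts. Of the 554 genes called in not5 alone, the difference test called 3. TSL1, a trehalose synthesis gene of the Msn2/4 list, rose by 0.70 ± 0.15 in zuo1 and had 0.34 ± 0.09 in not5.

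**Figure D3:**
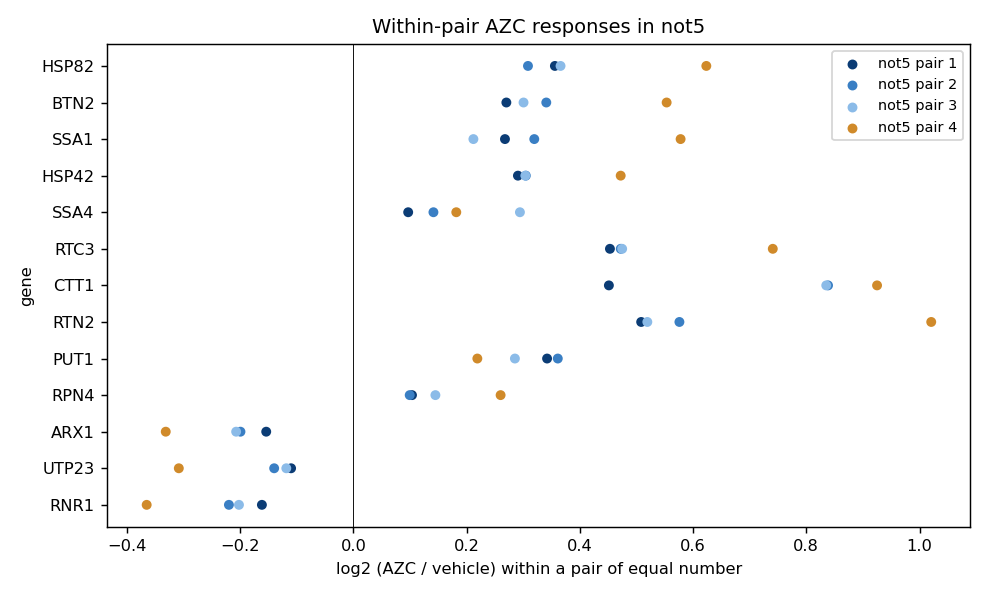
Points are log2 ratios of AZC to vehicle CPM within the 4 not5 pairs of equal replicate number for 13 genes (x axis). Every pair of HSP82, BTN2, CTT1 and PUT1 lies above 0 and every pair of ARX1, UTP23 and RNR1 below it, and pair 4 is the farthest from 0 for 11 of the 13 genes.

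Ribosome biogenesis genes fell in not5 by small amounts. Of 46 genes, 38 were lower in the separate not5 fit and none passed in zuo1 or in the difference, and the medians were -0.15 in not5 and -0.04 in zuo1. Without the not5 libraries of number 4, 13 were lower, and leaving out 1 not5 library at a time gave 7 to 35. ARX1, a factor of 60S subunit export, stood at 166, 96.8, 128 and 122 CPM with vehicle and 149, 84.3, 111 and 96.9 CPM with AZC in not5 and fell by 0.22 (SE 0.03). Its zuo1 value was -0.06 ± 0.08. UTP23, of the small subunit processome, fell by 0.17 (SE 0.04) in not5. The median of the list responded by -1.86 and -1.38 in wild type, and in vehicle it stood at -1.17 against wild type in not5. Of 135 cytosolic ribosomal protein genes, most of which have a near-identical copy, none passed in zuo1. In not5 15 were lower, where 4.86% of all genes were. That count ranged from 1 to 55 when 1 not5 library was left out. RNR1, ribonucleotide reductase, fell by 0.24 in not5 (SE 0.04), and CLB6, an S-phase cyclin gene, by 0.29 (SE 0.06). OPT1, a peptide transporter gene, fell by 0.22 (SE 0.04). The difference from zuo1 passed for none of these 5 genes.

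**Figure D4:**
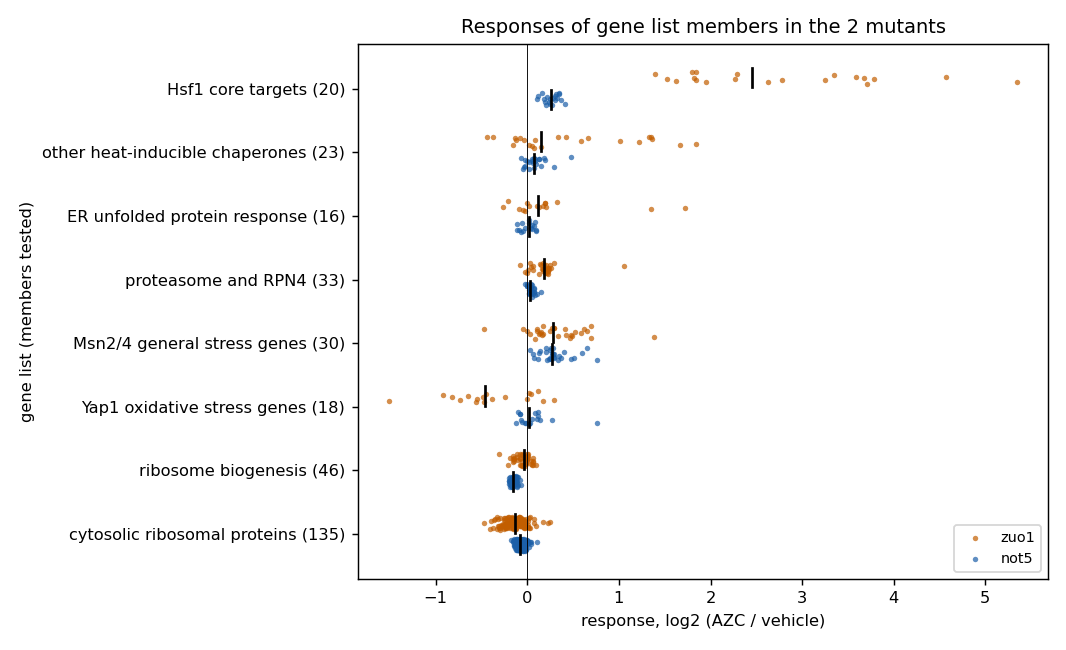
Points are the joint-fit responses of the tested members of 8 gene lists (rows) in zuo1 and not5, on a log2 scale (x axis), and black bars are list medians. The Hsf1 core targets reach 1.39 to 5.35 in zuo1 and 0.11 to 0.41 in not5, while the Msn2/4 medians lie side by side.

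Part of the Yap1 oxidative stress genes fell in zuo1. Of 18, 8 were lower in zuo1, where 1.01% of all genes were. The separate not5 fit called 3 higher, against 5.44% of all genes. A called difference with the lower value in zuo1 was found for 3, against 0.223% of all genes. The medians were -0.46 and 0.02. The zuo1 count was 3 in the separate fit and 4 to 11 when 1 library was left out, and the count of differences was then 1 to 9. TRX2 (YGR209C), a cytosolic thioredoxin, stood at 459, 406, 400 and 447 CPM with vehicle and 241, 320, 183 and 226 CPM with AZC in zuo1. In not5 it stood at 106, 114, 84.4 and 120 CPM and at 107, 122, 92.2 and 140 CPM. The zuo1 groups did not overlap and the not5 groups did. The response of -0.82 ± 0.13 in zuo1 and 0.12 ± 0.04 in not5 differed by -0.94 ± 0.18 (edgeR adjusted p = 0.010). In vehicle TRX2 was 2.28 above wild type in zuo1 and -0.18 from it in not5, and it responded by 0.15 and -0.08 in wild type.

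GPX2, a peroxidase, fell by 0.92 in zuo1 (SE 0.14) with a difference of -0.84 ± 0.19, and GRX2, a glutaredoxin whose record overlaps EMI1 and is uncertain without strand, fell by 0.56 (SE 0.10) with a difference of -0.70 ± 0.14. The difference lost its call in 13 of 16 fits without 1 library for GPX2 and in 4 of 16 for GRX2. In vehicle GPX2 stood 1.82 and GRX2 1.70 above wild type in zuo1. GRE2, a stress-induced reductase, fell by 0.59 in zuo1 (SE 0.10) and rose by 0.18 ± 0.05 in not5 (adjusted p = 0.046), 1 of 2 genes called in opposite directions. The other was DPB2, a subunit of DNA polymerase epsilon, which rose by 0.63 ± 0.07 in zuo1 and fell by 0.16 (SE 0.04) in not5. SRX1, sulfiredoxin, and TRR1, thioredoxin reductase, fell by 1.51 and 0.73 in zuo1 (SE 0.36 and 0.17), but the zuo1 vehicle library of number 2 was low for both, below all AZC libraries at 2.79 CPM for SRX1 and among them at 837 CPM for TRR1, and neither passed in the separate fit (adjusted p = 0.13 and 0.12). YLR046C fell by 0.76 (SE 0.14) in zuo1.

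CIN5, a transcription factor gene, was the 1 gene with a called difference that passed neither in zuo1 by the joint fit nor in not5 by the separate fit. By the separate fits alone, 4 genes with a called difference passed in neither mutant. It stood at 52.0, 149, 89.7 and 54.1 CPM with vehicle and 70.8, 238, 141 and 119 CPM with AZC in not5, and at 42.7 to 47.2 and 34.3 to 46.3 CPM in zuo1. All 4 not5 pairs were higher with AZC, by 0.45 to 1.14. The responses of 0.73 ± 0.13 in not5 (adjusted p = 0.051) and -0.16 ± 0.12 in zuo1 differed by -0.89 ± 0.16 (edgeR adjusted p = 0.0069). The call was lost where limma-voom weighted each mutant by its own spread, with a difference of -0.91 ± 0.25 (adjusted p = 0.129). RGS2, a regulator of G-protein signalling, and YML131W rose in not5 by 0.32 ± 0.06 and 0.21 ± 0.03 and had differences of -0.70 ± 0.16 and -0.65 ± 0.15. CIN2, a tubulin folding gene, fell by 0.73 in zuo1 (SE 0.09) and had a difference of -0.67 ± 0.13. Leaving out 1 library ended the call of the difference in 12 of 16 fits for RGS2 and for YML131W and in 4 of 16 for CIN2.

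Of 34 Gcn4 amino acid biosynthesis genes, 2 rose in zuo1 and 8 were lower in not5, where 4.86% of all genes were. The 8 became 1 without both not5 libraries of number 4 and 2 to 7 without 1 not5 library. The 2 that rose were ILV2 and HOM3, early enzymes of branched-chain and aspartate-family amino acid synthesis, with called differences of 0.57 ± 0.12 and 0.47 ± 0.10 that were lost in 11 and 10 of 16 fits without 1 library. PRM5, a target of the cell wall integrity pathway, rose by 0.81 ± 0.06 in zuo1 and had 0.00 ± 0.03 in not5, 1 of 19 cell wall genes with a called difference. Of 18 glycolysis and fermentation genes, 1 rose in zuo1 by the joint fit, PGK1 by 0.51 ± 0.09, but 0 by the separate zuo1 fit. In not5 4 rose and 1 fell, where 5.44% and 4.86% of all genes did. PGK1 was among the 4, with 0.17 ± 0.04, and so was not among the genes called in both mutants. None of 22 sulfur and methionine, 23 iron, 18 phosphate, 10 histone, 39 respiration, 14 drug resistance and 12 marker genes had a called difference. The messages of GCN4 and HSF1 themselves had -0.01 ± 0.07 and 0.06 ± 0.05 in zuo1 and -0.04 ± 0.03 and 0.00 ± 0.03 in not5, and none of these passed.

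The wild-type responses of the same flowcells give a scale for both mutants and share no library with the mutant responses. Over 5240 genes averaging 10 CPM or more, the slope on the wild-type response of the same flowcell was 0.18 for zuo1 (r = 0.573) and 0.08 for not5 (r = 0.537). The slopes and shares of equal sign over called genes that follow move with the choice of genes called in 1 mutant. Over 241 genes called in zuo1, the zuo1 response rose by 0.469 for each unit of the flowcell 1 wild-type response (r = 0.851), and the not5 response by 0.0603 for each unit of the flowcell 2 wild-type response (r = 0.741). Over 542 genes called in not5 alone, the slopes were 0.0551 for zuo1 and 0.147 for not5. Of the not5 values of these 542, 90.8% had the sign of the wild-type response, against 69.2% over the 5240 genes. Of the zuo1 values of the 241 genes, 92.9% had it, against 64.5% over the 5240. After each wild-type response was subtracted, 113 genes had a called difference, 46 of them among the 96 above. Of the 35 named genes with a called difference, 22 kept it, and TRX2, GPX2, GRE2, CIN2, YML131W, TMA10, MBF1, ATG41, PUT1, UBC4, NPL4, HOM3 and PRM5 did not.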

How the data were processed

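Poly(A) RNA was sequenced in all 32 libraries, of which the 16 mutant libraries enter the comparison. The authors deposited 1 table of expected counts per gene, for which the submitters' processing notes name Salmon 1.10.2, FastQC 0.12.1 and R64. Rounding to whole counts was applied here, since 79.1% of the deposited values had a fraction. Of 6085 records, 6084 matched RefSeq R64 by accession, and the other held at most 0.0179% of a library. The kit does not mark strand, so the 281 records that overlap another gene are uncertain. Replicates are called biological in the labels, with no word of separate cultures, so p-values measure the spread between libraries, which may be technical. The SE after ± come from the same fits and so also hold the spread between libraries.

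Responses were tested in R 4.3.3 with the quasi-likelihood F test of edgeR 4.0.16, with robust estimation, TMM scaling, its filterByExpr filter and Benjamini-Hochberg adjustment at 0.05, in 1 joint fit with an AZC term for each mutant and a term for each not5 replicate number, and in separate fits of the 8 libraries of each mutant. Alternatives used DESeq2 1.42.0 and limma 3.58.1. The replicate numbers were taken to pair the not5 libraries, a choice fixed for this comparison before these fits. Deviations of equal not5 numbers from the group means correlated at 0.914, 0.925, 0.461 and 0.799 over 5243 genes. In zuo1 the correlations were 0.0567, 0.227, 0.599 and 0.2. Number 1 correlated least there, and zuo1 was not blocked. No separate zuo1 fit with a block was run. Genes called in both mutants or in 1 alone thus come from a blocked not5 fit and an unblocked zuo1 fit. CPM are scaled by TMM factors. Wild-type responses came from 1 fit of all 32 libraries.

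Named genes were protein-coding, with a mean of at least 10 CPM: the 8 largest differences called in each direction, the 10 largest called in both mutants and any called in opposite directions, the 5 largest rises and falls called in each mutant (the 5 of lowest p where none passed), 9 fixed genes, and up to 4 members of each list, the uncalled of which are mostly not named. As the joint fit called no gene in not5, the rule was also applied to the separate fits. Some genes that met the rule, UPA2 and YFL002W-A among them, are not described above. Tallies of named genes cover only those described. The members and lists were chosen with earlier results of these data known, and aliases in the lists were matched to current symbols after the table was seen.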

Additional observations from a re-analysis of the deposited data

Results flagged for a closer look

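For the named genes, 228 groups of 4 libraries were read for a library far from the other 3, and 12 had one, where chance gives about 1 in 20. In not5 vehicle, library 2 stood at 240.0 CPM for UGA2, 35.1 for FMP48, 20.5 for GID10 and 260.0 for SPG4, against next values of 96.9, 11.5, 9.03 and 88.1. In not5 AZC, library 2 stood at 42.8 CPM for GID10, library 4 at 444 for PUT2 and library 1 at 753 for GCN4. The next values were 14.8, 439 and 797. In zuo1 vehicle, library 1 stood at 280.0 CPM for SSA1, library 3 at 14.7 for CUR1, and library 2 at 79.3 for DPB2 and 39.2 for CTH1. There the next values were 392, 21.6, 68.0 and 47.9. In zuo1 AZC, library 2 stood at 30.6 CPM for PUT1, against a next value of 32.1. The rule reads a gap against the range of the 4 libraries, so small gaps such as those of PUT1 and PUT2 can be flagged.

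The responses of the mutants differed by the joint edgeR test for 35 named genes, given as the log2 response in zuo1 minus that in not5. Among Hsf1 targets and related folding genes they were 4.98 for BTN2, 4.15 for HSP82, 3.61 for SSA4, 3.36 for HSP42, 3.34 for HSP104, 3.33 for SSA1, 3.1 for HSP78, 2.94 for CUR1, 1.63 for KAR2, 1.55 for SSE2, 1.48 for OPI10, 1.3 for ERO1 and 1.27 for HSP60. Among genes of protein turnover, mRNA and other stress roles they were 3.04 for ROQ1, 2.23 for ATG41, 1.53 for MBF1, 1.48 for EDC2, 1.18 for TMA10, 0.99 for UBC4, 0.9 for RPN4, 0.83 for CTH1 and 0.39 for NPL4. Among other genes with the higher value in zuo1 they were 0.81 for PRM5, 0.79 for DPB2, 0.76 for PUT1, 0.57 for ILV2 and 0.47 for HOM3. With the lower value in zuo1 they were -0.94 for TRX2, -0.89 for CIN5, -0.84 for GPX2, -0.76 for GRE2, -0.7 for GRX2 and RGS2, -0.67 for CIN2 and -0.65 for YML131W.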

How the results depend on the processing

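Counts of genes called in zuo1, in not5, by the difference test and in both mutants were 249, 0, 96 and 0. DESeq2 gave 414, 49, 161 and 7. limma-voom gave 42 in not5 and 5 in both, and the fit of all 32 libraries gave 6 in not5. A replicate block in both mutants gave 758, 40, 223 and 10, where zuo1 libraries correlated best with their own number for numbers 2, 3 and 4 but not for 1, and no replicate block in either gave 169, 0, 77 and 0. Separate fits gave 126, 600 and 46 for zuo1, not5 and both, and limma-voom with a weight per mutant, chosen after seeing the data, gave 153, 651 and 48, with 113 differences, of which 90 were among the 96. Leaving out 1 library in the joint fit gave 173 to 605, 0 to 8, 73 to 182 and 0 to 1. In the separate fits, tried after seeing the data, it gave 95 to 173 in zuo1, 216 to 501 in not5 and 27 to 49 in both. Without both not5 libraries of number 4 the separate fit gave 241 in not5 and 31 in both, and without the replicate block 0 in each. Scaling, the filter and leaving out ribosomal RNA records kept each of these totals within 1.5 times, but library totals moved the genes lower in zuo1 from 59 to 124. The causes of these changes were not tested.

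Of 1539 values of 57 named differences under alternatives, 1388 kept direction and call, 112 lost the call, 25 gained it and 14 changed sign, none of them called. After wild-type subtraction the sign changed for RTC3 (-0.246), CLB6 (0.217), PUT2 (-0.0469), HSF1 (-0.0614), TSL1 (-0.341) and UTP23 (0.640). GCN4 changed to -0.0237 with library totals. Without 1 library GCN4 ranged from -0.0220 to 0.0544, CLB6 from -0.110 to 0.0199 and UTP23 from -0.0929 to 0.00205. Of 35 called differences, 26 kept the call without any 1 library.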
